A study of Mus musculus with 8 samples.

Results

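The chemokine ligand genes of the CC, CXC and CX3C families were followed in distal colon after induced appendicitis with later removal of the appendix (AA), and after sham operations (SS), in mice. Members were taken by gene symbol alone, as probe sets whose only symbol starts with Ccl, Cxcl or Cx3cl and a number. Ccl20 and Cxcl13 were not among the members, and where a gene had several probe sets the brightest over the 8 arrays stood for it. This gave 31 genes from 36 probe sets, of 16645 genes and 18154 probe sets with a single symbol. The probe sets of the Ccl21 (4) and Ccl27 (3) genes carry several symbols and were not members. The AA group had 4 arrays of colon from male BALB/c mice, 5 weeks old, in which appendicitis was induced near the proximal colon and the appendix was removed 1 week later. The SS group had 4 arrays of mice of the same strain, sex and age that underwent a pair of sham operations 1 week apart. All mice of both groups were therefore operated on in 2 sessions, and no unoperated colon was among the arrays used here. The name of the authors' deposited table of gene sets gives 3 days after appendicectomy, which the labels of the arrays do not state. Each labelled batch, 1 and 2, held replicates of both groups (replicates 1 and 2 in batch 1, replicates 3 and 4 in batch 2). The labels describe individual colon samples but name no animals, and the spread behind each p-value is that between these samples, which may be technical.

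Chemokines are small secreted proteins that bind to matrix sugars and to G protein-coupled receptors on white blood cells, and so direct where those cells move. Families are named by the spacing of the first conserved cysteines of the protein. Interferon-induced ligands (Cxcl9, Cxcl10 and Cxcl11) act through Cxcr3 on effector T cells and natural killer cells. Inflammatory ligands appear on injury or infection and draw in monocytes, neutrophils and eosinophils. Homeostatic ligands are made without inflammation and keep lymphocytes in place, as Ccl28 does for IgA-producing cells of the colon. A further 5 members with dual roles or a membrane-bound form (Cxcl16, Cxcl17, Cx3cl1, Ccl17 and Ccl22) were kept apart.

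Values are log2 expression per probe set, as the authors deposited them, and differences are AA minus SS on that scale. None of the 31 ligands passed the threshold, an adjusted p under 0.05 in limma over all 18154 probe sets, where the smallest adjusted p of a member was 0.551. The same fit called 0% of all probe sets. At an unadjusted p under 0.05, 3 ligands had a higher mean in AA (Ccl11, Ccl12 and Cxcl11) and 0 a lower one, beside 5.67% of all genes higher and 2.29% lower, so the 3 of 31 stand near the share of all genes. After quantile normalization 2 were higher and 1 lower at that p, beside 4.74% and 4.57% of all genes. The mean was higher in AA for 22 ligands and lower for 9, against 52.2% of all genes higher. The median difference was 0.17 over the ligands and 0.0066 over all genes.

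The interferon-induced ligands had a median difference of 0.27 with 3 of 3 higher in AA, and the inflammatory ones 0.21 with 12 of 18 higher. Among homeostatic ligands the median was 0.12 with 4 of 5 higher, and among the dual-role and membrane-bound ones it was 0.03 with 3 of 5 higher. The differences between the classes were not tested. In bulk tissue, fewer cells of a type and less RNA per cell cannot be told apart.

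AA replicate 3 stood apart from the other arrays. It held the highest of the 8 values for 18 of the 31 ligands, beside 10.2% of all genes, and SS replicate 4 the lowest for 13, beside 11.3%. AA replicate 3 was highest for 3 of 3 interferon-induced and 12 of 18 inflammatory ligands, and for 0 of 5 homeostatic ones. For 5 ligands (Ccl8, Cxcl5, Cxcl10, Ccl2 and Ccl12) it lay at least 1 log2 unit above the next array, beside 0.391% of all genes. Without AA replicate 3 the median difference was 0.03 over all ligands, 0.13 over the interferon-induced, 0.03 over the inflammatory and 0.18 over the homeostatic ones. The homeostatic median was lowest, at 0.04, without AA replicate 4. With AA replicate 3 left out no ligand had a higher mean at an unadjusted p under 0.05 (0 of 31, beside 5.81% of all genes), and 1 had a lower mean, Ccl28 (beside 2.05%). Without SS replicate 4, too, 0 ligands had a higher mean at that p, beside 3.39% of all genes.

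The batches also differed. Within batch 1 the AA mean was higher for 14 ligands, beside 55.2% of all genes, with a median difference of -0.02. Within batch 2, which holds AA replicate 3, it was higher for 27 ligands, beside 51.1% of all genes, with a median of 0.33. In both batches it was higher for 12 ligands, beside 25.8% of all genes. Both AA arrays lay above both SS arrays for 3 ligands in batch 1 and 14 in batch 2, beside 21.7% of all genes in each batch. Both lay below for 7 ligands in batch 1 and 1 in batch 2, beside 17.6% and 23.7%. The deposited values have equal batch means for each probe set, so a high array in a batch sets the other 3 arrays of that batch lower. Overlap over all 8 arrays is therefore a description, and the test uses only the differences within batches.

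**Figure D1:**
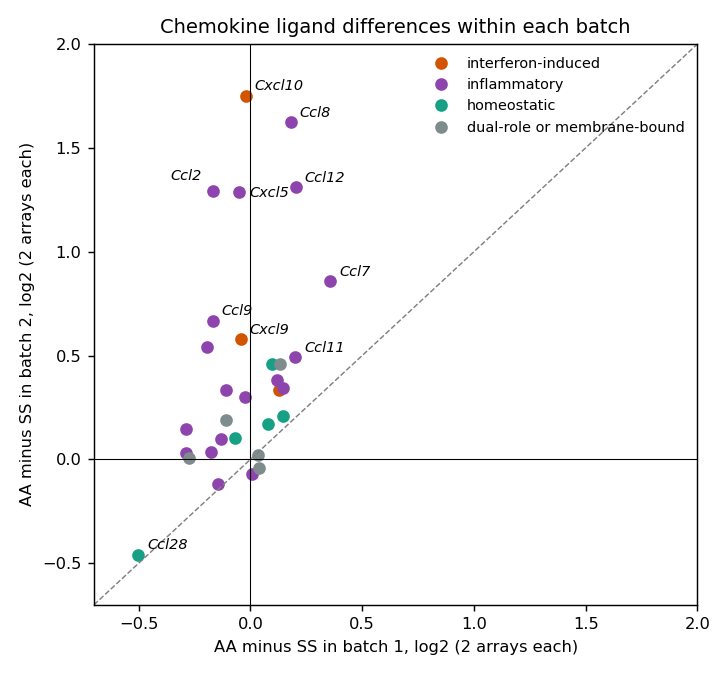
AA minus SS difference of each of the 31 ligands in batch 1 (horizontal axis) and in batch 2 (vertical axis), on the log2 scale, with 2 AA and 2 SS arrays in each batch; colours mark the classes and the dashed line marks equal differences. Cxcl10, at -0.02 in batch 1 and 1.75 in batch 2, lies highest, and Ccl28, at -0.50 and -0.46, lies lowest and near the line.

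Among the interferon-induced ligands, Cxcl10 (also called IP-10) had the widest spread. It stood at 8.46, 7.52, 10.27 and 7.48 in AA replicates 1 to 4, against 8.41, 7.61, 7.15 and 7.09 in SS replicates 1 to 4. In batch 1 the groups interleaved, and in batch 2 both AA arrays lay above both SS arrays. The means were 8.43 ± 1.31 in AA and 7.57 ± 0.61 in SS (SD, n = 4 each), a difference of 0.86 ± 0.59 (SE) with a 95% interval of -0.46 to 2.19 (limma adjusted p = 0.761). Without AA replicate 3 the difference was 0.13, with an interval of -0.45 to 0.71.

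Cxcl9 (MIG), a ligand induced mostly by interferon gamma, had the same high array. Its values were 6.57, 6.24, 7.41 and 6.03 in the AA replicates, against 6.55, 6.35, 6.28 and 6.001 in the SS replicates. Apart from AA replicate 3 the groups overlapped throughout, and the difference of 0.27 ± 0.27 (SE) became -0.07 without that array. Cxcl11 (I-TAC), the Cxcr3 ligand of highest affinity, was dim, with a mean under 7.13, the midpoint of all tested probe sets. It stood at 5.42, 5.55, 5.66 and 5.52 in AA and at 5.47, 5.25, 5.33 and 5.18 in SS. SS replicate 1 alone reached into the AA values. The difference was 0.23 ± 0.10 (SE), at an unadjusted p of 0.041 and a limma adjusted p of 0.603, and it was 0.18 without AA replicate 3.

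The monocyte attractants Ccl2 (MCP-1), Ccl7 (MCP-3) and Ccl12 (mouse MCP-5), which signal through Ccr2, followed the same array. Ccl8 (MCP-2), which in mice acts through Ccr8, had the largest difference of the 31 ligands. Ccl8 stood at 6.01, 5.96, 8.38 and 5.03 in the AA replicates, against 6.33, 5.28, 5.53 and 4.64 in the SS replicates. The groups overlapped in both batches outside AA replicate 3. Its difference of 0.90 ± 0.65 (SE) had an interval of -0.56 to 2.36 and was 0.09, with an interval of -0.54 to 0.72, without that array.

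Ccl12 had 5.91, 5.70, 6.999 and 5.72 in the AA replicates, against 5.84, 5.37, 5.27 and 4.84 in the SS replicates. In batch 2 both AA arrays lay above both SS arrays, and in batch 1 the groups overlapped. The difference was 0.76 ± 0.31 (SE), at an unadjusted p of 0.0364 and a limma adjusted p of 0.587, or 1.69-fold with an interval of 1.04 to 2.74. Without AA replicate 3 it was 0.39, with an interval of -0.0039 to 0.78.

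For Ccl7 the values were 6.77, 6.35, 7.52 and 6.11 in AA and 6.25, 6.16, 6.14 and 5.77 in SS. Ccl7 was the 1 monocyte attractant of these with both AA arrays above both SS arrays in batch 1, and in batch 2 AA replicate 4 fell between the SS arrays. Its difference was 0.61 ± 0.27 (SE), and 0.28 without AA replicate 3. Ccl2 had 6.24, 6.04, 7.83 and 5.91 in AA, against 6.36, 6.26, 5.62 and 5.53 in SS. The sign turned between batches, at -0.17 in batch 1 and 1.29 in batch 2, and without AA replicate 3 the difference was 0.03. Ccl8, Ccl12, Ccl2 and Ccl7 all had means below 7.13.

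Ccl2, Ccl7, Ccl11, Ccl12, Ccl8 and Ccl1 are 6 consecutive protein-coding genes on chromosome 11 in the RefSeq gene order of GRCm38.p6. Their median difference was 0.59, with a median of 0.19 in batch 1, 1.08 in batch 2 and 0.18 without AA replicate 3. AA replicate 3 was the highest array for 5 of the 6, the exception being Ccl1, a Ccr8 ligand of activated T cells, which differed by -0.07. A second run on the same chromosome (Ccl5, Ccl9, Ccl6, Ccl3 and Ccl4) had a median of 0.25, and of -0.09 without that array. The run of Cxcl3, Cxcl15, Cxcl1 and Cxcl2 on chromosome 5 had a median of 0.04.

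**Figure D2:**
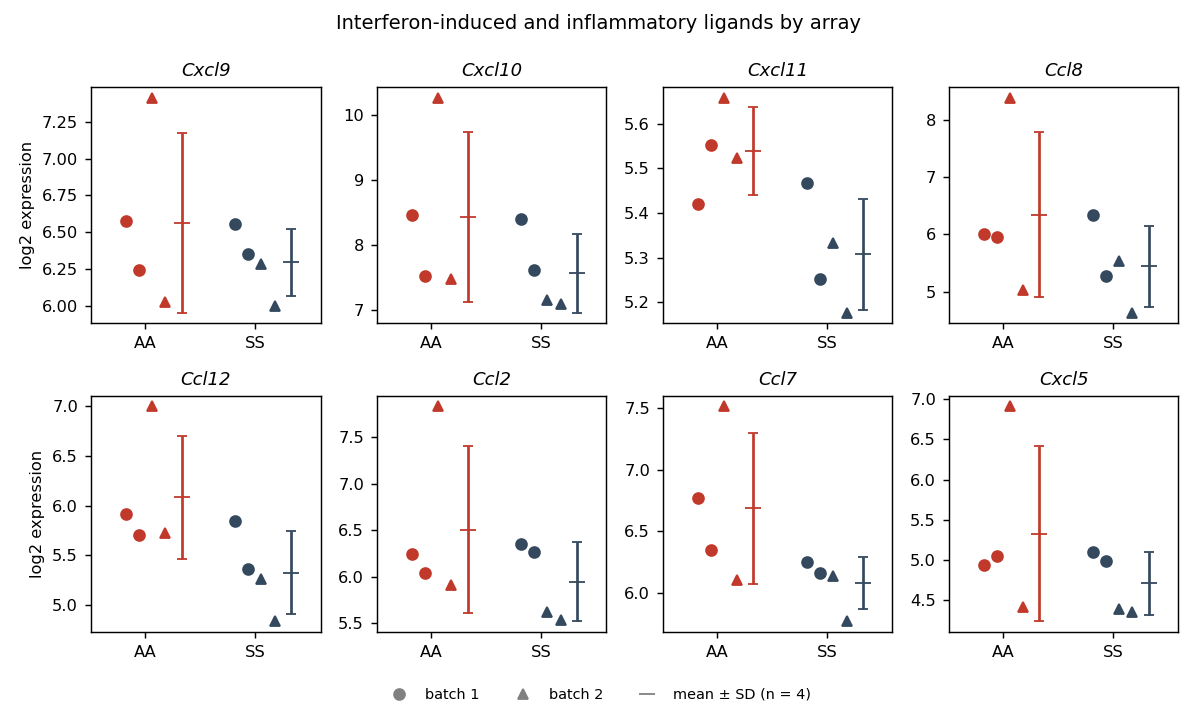
Log2 expression (vertical axes, each panel on its own scale) of the 3 interferon-induced ligands and of 5 inflammatory ligands in the AA and SS arrays; each point is an array, circles and triangles mark batches 1 and 2, and bars show mean ± SD (n = 4). The highest point of each panel is AA replicate 3, at 10.27 for Cxcl10 and 8.38 for Ccl8.

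The promoters of 4 ligands are shown because they lead the classes or stand out within them: Cxcl10 and Ccl8 had the largest differences of the interferon-induced and inflammatory ligands, Ccl12 neighbours Ccl8 and had an unadjusted p under 0.05, and Ccl28 had the lowest difference of all. Each is the 250 bases before the gene's start, 5′ to 3′ in the direction of the gene, from RefSeq on GRCm38.p6, with matches to the motifs named after them in capitals.
Cxcl10, chr5:92348890-92349139, minus strand: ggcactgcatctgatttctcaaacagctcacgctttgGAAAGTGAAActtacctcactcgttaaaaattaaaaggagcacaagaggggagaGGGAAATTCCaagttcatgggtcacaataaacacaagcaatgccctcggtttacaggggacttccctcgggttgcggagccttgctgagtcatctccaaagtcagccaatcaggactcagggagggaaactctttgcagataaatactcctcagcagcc
Ccl8, chr11:82114935-82115184, plus strand: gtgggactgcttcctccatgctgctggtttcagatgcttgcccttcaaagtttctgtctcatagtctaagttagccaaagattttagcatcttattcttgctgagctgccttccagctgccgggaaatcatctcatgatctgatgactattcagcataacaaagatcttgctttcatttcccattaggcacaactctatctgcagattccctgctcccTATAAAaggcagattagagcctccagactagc
Ccl12, chr11:82101595-82101844, plus strand: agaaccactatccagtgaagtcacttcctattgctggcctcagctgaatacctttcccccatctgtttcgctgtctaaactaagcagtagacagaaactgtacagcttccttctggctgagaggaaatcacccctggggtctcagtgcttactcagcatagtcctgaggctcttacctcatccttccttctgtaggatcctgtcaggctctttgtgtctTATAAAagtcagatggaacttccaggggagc
Ccl28, chr13:119623569-119623818, plus strand: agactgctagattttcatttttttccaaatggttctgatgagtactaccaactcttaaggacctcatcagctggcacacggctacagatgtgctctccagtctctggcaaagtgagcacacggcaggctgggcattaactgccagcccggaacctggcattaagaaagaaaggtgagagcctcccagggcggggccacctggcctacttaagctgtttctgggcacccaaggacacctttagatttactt
Motifs searched on both strands were the interferon-stimulated response element (TTTC, any 2 bases, TTTC), the gamma-activated site TTCNNNGAA, 2 forms of the NF-kB site (GGG, any 2 bases, TTTCC, and GGGA, any 2 bases, TTCC), which can overlap each other, and the TATA box TATAAA. In Cxcl10 the first capitals are the interferon-stimulated response element on the opposite strand, starting 213 bases before the gene's start, and the second are an NF-kB site of the second form, 159 bases before it. In Ccl8 and Ccl12 the capitals are TATA boxes, 32 and 31 bases before the start. No match to these motifs was found in the Ccl28 window. Promoter windows were found for 20 of the 31 ligands (21 windows). The interferon-stimulated response element was in 3 of them (Cxcl10, Ccl19 and Cxcl14), beside 2.98% of the 32851 windows of this length in the table. The gamma-activated site was in 2 (Ccl17 and Cxcl14), beside 7.02%. The first NF-kB form was in 4 (Cxcl1, Cxcl2, Cxcl3 and Ccl9), beside 1.41%, the second in 5 (Cxcl1, Cxcl2, Cxcl3, Cxcl10 and Ccl1), beside 1.21%, and the TATA box in 8, beside 12.4%. These matches describe letters and not bound sites.

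The neutrophil attractants bind Cxcr2. Cxcl5 (LIX in mice) had 4.93, 5.05, 6.91 and 4.41 in the AA replicates, against 5.10, 4.99, 4.39 and 4.35 in the SS replicates. A single array, AA replicate 3, stood apart, and the difference of 0.62 ± 0.47 (SE) became -0.02 without it. Cxcl1 (KC) and Cxcl2 (MIP-2), which carry NF-kB matches in their promoter windows, differed by 0.14 ± 0.10 (SE) and 0.11 ± 0.13 (SE), and by 0.11 and 0.03 without AA replicate 3. Their 95% intervals, -0.08 to 0.36 and -0.17 to 0.40, reached up to 1.28-fold and 1.32-fold higher in AA. Cxcl3 differed by -0.03 and Cxcl15 (lungkine, known from mouse lung) by -0.07.

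The eosinophil attractants act through Ccr3. Ccl11 (eotaxin-1), which is made by stromal cells and macrophages of the colon, had the smallest p of the ligands. It stood at 8.02, 8.35, 8.46 and 8.21 in the AA replicates, against 8.03, 7.94, 8.03 and 7.65 in the SS replicates. Only AA replicate 1 reached down into the SS values, and both batches gave a positive difference, 0.20 in batch 1 and 0.49 in batch 2. The difference was 0.35 ± 0.13 (SE), a 1.27-fold higher mean, at an unadjusted p of 0.0241 and a limma adjusted p of 0.551. Without AA replicate 3 it was 0.27, with an interval of -0.03 to 0.57. Ccl24 (eotaxin-2) differed by 0.17, with opposite signs in the batches (-0.19 and 0.54), and by 0.05 without AA replicate 3. Ccl26, named after a human eotaxin, differed by -0.13. Of the mast cell and eosinophil markers, 1 of 6 had a higher mean in AA, with a median of -0.10. Without AA replicate 3 this was 3 of 6, with a median of 0.006.

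Of the other inflammatory ligands, Ccl6, a rodent Ccr1 ligand of myeloid cells, stood at 10.42, 10.80, 11.06 and 10.43 in AA and at 10.43, 10.55, 10.42 and 10.30 in SS. AA replicates 2 and 3 were high and the other AA arrays lay within the SS values. Its difference of 0.25 ± 0.15 (SE) was 0.10 without AA replicate 3. Ccl9, its rodent relative, had 7.73, 7.49, 8.67 and 7.39 in AA, against 8.13, 7.43, 7.32 and 7.41 in SS, so that each group held 1 high array. Ccl9 differed by 0.25 ± 0.29 (SE), and by -0.09 without AA replicate 3.

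Ccl3, Ccl4 and Ccl5, which attract monocytes and T cells, had small differences of either sign. Ccl3 (MIP-1 alpha) differed by 0.25 ± 0.12 (SE), Ccl4 (MIP-1 beta) by -0.02 ± 0.11 (SE) and Ccl5 (RANTES), a product of T cells and natural killer cells, by -0.13 ± 0.16 (SE). These differences were 0.13, -0.10 and -0.24 without AA replicate 3. Ccl5 is also known as interferon-induced, and its values ran from 7.20 to 7.77 in AA and from 7.47 to 7.79 in SS, overlapping in both batches.

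The lowest difference of the 31 ligands was that of a homeostatic one. Ccl28 (MEC), made by colon epithelium and a ligand of Ccr10 on IgA-producing plasmablasts, had 10.06, 8.95, 9.78 and 9.27 in the AA replicates, against 9.85, 10.17, 10.05 and 9.92 in the SS replicates. Of the AA arrays, 3 lay below all SS arrays and AA replicate 1 lay among them. The means were 9.52 ± 0.50 in AA and 9.997 ± 0.14 in SS (SD, n = 4 each). The difference of -0.48 ± 0.22 (SE), 0.716 of the SS level, had an interval of -0.98 to 0.02 (limma adjusted p = 0.638). It was alike in the batches, at -0.50 and -0.46, and was -0.59 without AA replicate 3, at an unadjusted p of 0.0357. Without AA replicate 2 it was -0.26. Ccr10, its receptor, differed by 0.07 ± 0.10 (SE), and the colon epithelium markers had list means of 12.38 to 12.52 in AA and 12.27 to 12.50 in SS, with a median difference of 0.04. B cell markers had 7 of 7 means lower in AA (median -0.49), and 0 passed the adjusted threshold. At an unadjusted p under 0.05 in limma 6 of these markers were lower, beside 2.29% of all genes. Their list means were 5.24 to 5.77 in AA and 6.05 to 6.39 in SS, and their part in the Ccl28 value was not tested. The list was not chosen for IgA-producing cells.

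Cxcl12 (SDF-1), the stromal ligand of Cxcr4, was the 1 ligand whose groups did not overlap, beside 4.33% of all genes with all AA arrays above and 1.84% with all below. It had 7.24, 7.24, 7.40 and 7.43 in AA, against 7.23, 7.05, 7.21 and 6.71 in SS. The nearest arrays, AA replicate 2 and SS replicate 1, were apart only in the second decimal, and SS replicate 4 lay lowest. AA arrays lay above SS arrays within each batch too, but the groups overlapped once arrays were centred on their medians. Its difference was 0.28 ± 0.13 (SE), with an interval of -0.01 to 0.57 and a limma adjusted p of 0.640, and without SS replicate 4 it was 0.14. The markers of fibroblasts, a known source of Cxcl12, had 8 of 8 means higher in AA (median 0.74), with list means of 10.23 to 10.54 in AA and 9.51 to 10.09 in SS; their part in the Cxcl12 value was not tested.

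Cxcl14 (BRAK), an epithelial and stromal ligand, stood at 7.28, 7.26, 7.29 and 7.31 in AA and at 7.08, 7.17, 7.37 and 6.82 in SS. The AA arrays were close together and SS replicate 3 lay above all of them. Its difference was 0.18 ± 0.12 (SE), and 0.06 without SS replicate 4. Ccl25 (TECK), the Ccr9 ligand of small intestine and thymus, had 2 probe sets of opposite sign, the brighter at 0.12 ± 0.10 (SE) and the other at -0.16 ± 0.12 (SE). Ccl19, which guides Ccr7-bearing T cells and dendritic cells, had 5 probe sets with differences from -0.03 to 0.02. Of these 5, 2 carry identical values, and the gene has near-identical copies, so its level is uncertain.

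**Figure D3:**
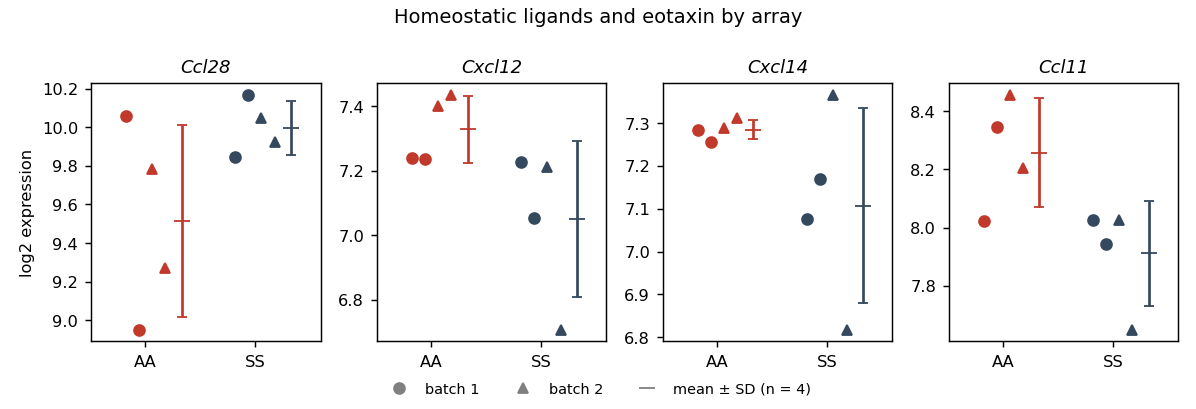
Log2 expression (vertical axes, each panel on its own scale) of the homeostatic ligands Ccl28, Cxcl12 and Cxcl14 and of the eotaxin Ccl11 in the AA and SS arrays; points, batches and bars are as in the plot of interferon-induced ligands. For Ccl28, 3 of the AA arrays lie below every SS array, and for Cxcl12 all AA arrays lie above the SS arrays, the nearest at 7.24 and 7.23.

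Among the ligands with dual roles or a membrane-bound form, Cxcl16, a transmembrane Cxcr6 ligand and scavenger receptor, had 8.36, 7.80, 8.47 and 8.02 in AA, against 8.03, 7.86, 7.77 and 7.80 in SS. In batch 2 both AA arrays lay above both SS arrays. Its difference was 0.30 ± 0.15 (SE), with an interval of -0.05 to 0.64, and it was 0.17 without AA replicate 3. Cx3cl1 (fractalkine), the membrane-bound Cx3cr1 ligand, had 8.05, 7.40, 7.69 and 7.68 in AA and 7.59, 7.78, 7.59 and 7.86 in SS. The AA arrays spread on either side of the SS arrays, and the difference was -0.00098 with an interval of -0.32 to 0.32.

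Cxcl17, a mucosal ligand, had 6.52, 6.47, 6.69 and 6.60 in AA and 6.59, 6.62, 6.34 and 6.58 in SS, a difference of 0.04 with AA below SS in batch 1 and above it in batch 2. The Ccr4 ligands of dendritic cells were both dim. Ccl22 (MDC) stood at 5.18, 5.48, 5.46 and 5.48 in AA and at 5.85, 5.36, 5.39 and 5.54 in SS, with AA replicate 1 lowest and SS replicate 1 highest. It differed by -0.13 ± 0.13 (SE), and Ccl17 (TARC) by 0.03 ± 0.14 (SE). Of all 31 ligands, 21 had a mean below 7.13.

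**Figure D4:**
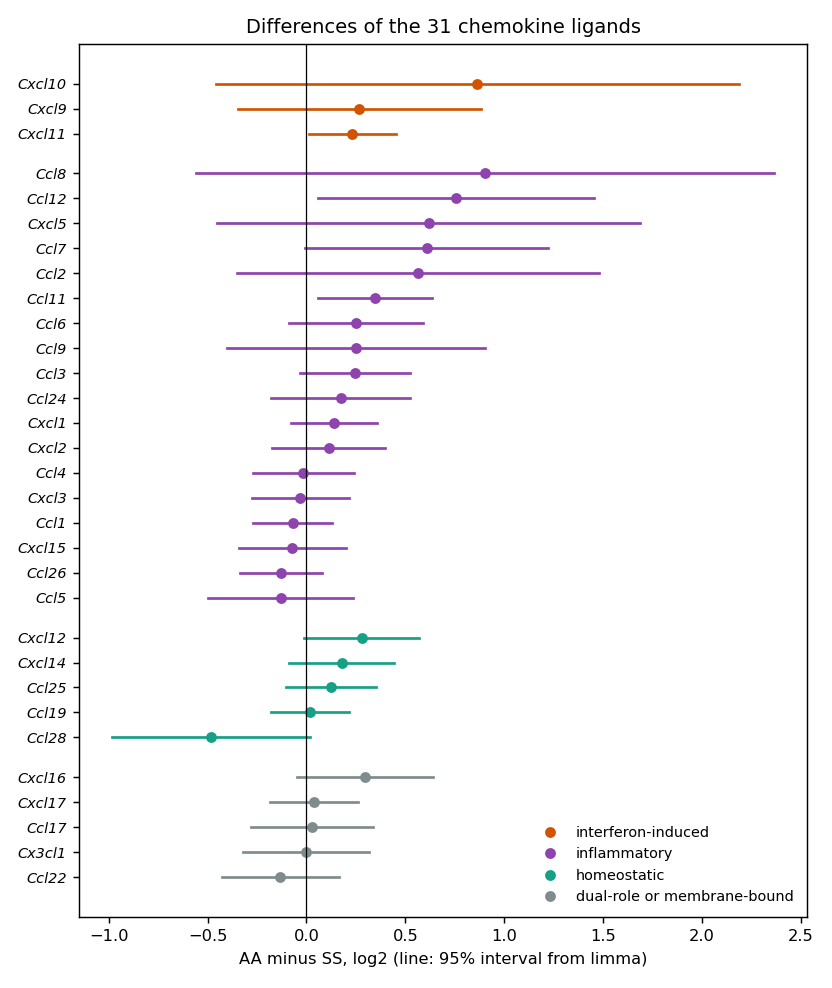
AA minus SS difference on the log2 scale (points) with its 95% interval from limma (lines) for each of the 31 ligands, grouped by class and ordered by difference. The intervals of Ccl12, Ccl11 and Cxcl11 lie above 0 without adjustment, and that of Ccl28, the lowest, ends at 0.02.

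The receptors and other chemokine genes were measured in part. Of 18 leukocyte receptors 13 were measured, and the others are not analysed here. Their median difference was -0.00067, with 6 higher and 7 lower in AA. Of the 13, 0 had an unadjusted p under 0.05 in limma, beside 5.67% of all genes higher and 2.29% lower. SS replicate 1 was the highest array for 8 of the 13, beside 16.6% of all genes. AA replicate 3 was highest for 3 (Ccr1, Ccr2 and Cxcr2), beside 10.2%. Ccr2, the receptor of Ccl2, Ccl7 and Ccl12, had 6.97, 6.37, 8.51 and 6.25 in AA, against 7.39, 6.48, 6.21 and 6.25 in SS, and its difference of 0.44 ± 0.48 (SE) became -0.15 without AA replicate 3. Cxcr2, the neutrophil receptor, differed by 0.39 ± 0.33 (SE), and by -0.03 without that array. Cxcr3, the receptor of the interferon-induced ligands, differed by 0.08 ± 0.16 (SE), with SS replicate 1 highest.

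Of 6 atypical receptors, which bind chemokines without signalling through G proteins or share their fold, 5 were measured and 4 had a higher mean in AA. Ackr3, a scavenger of Cxcl12 and Cxcl11, stood at 7.66, 7.39, 8.02 and 7.40 in AA and at 7.44, 7.27, 7.22 and 7.11 in SS, a difference of 0.36 ± 0.15 (SE) at an unadjusted p of 0.0417 and a limma adjusted p of 0.603. It was 0.19 without AA replicate 3, at an unadjusted p of 0.106 in limma. Of 3 ligands named outside the symbol rule, Pf4 (platelet factor 4, Cxcl4) had 7.64, 7.02, 7.88 and 7.61 in AA, against 7.45, 6.59, 6.67 and 6.54 in SS. Only AA replicate 2 lay below an SS array, SS replicate 1, which was high among the SS arrays. Its difference of 0.72 ± 0.24 (SE), at an unadjusted p of 0.0144 and a limma adjusted p of 0.503, was 0.58 without AA replicate 3. Xcl1 and Ppbp differed by 0.04 and -0.0074.

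Lists of interferon and NF-kB response genes were set beside the ligands. Of the type I interferon response list, all 14 measured genes had the higher mean in AA (median 0.85). All 14 had an unadjusted p under 0.05 in limma, beside 5.67% of all genes higher at that p, and 0 passed the adjusted threshold. Rsad2, Oasl1 and Oas3, of antiviral effector families, differed by 1.33, 0.49 and 0.89, and Irf7, a transcription factor of the response, by 0.78. For interferon gamma response genes 9 of 10 means were higher in AA (median 0.64). There 3 had an unadjusted p under 0.05, beside the same 5.67% of all genes. They were the GTPases Irgm1, at 0.74 ± 0.25 (SE), and Gbp3, at 0.89 ± 0.38 (SE), and the immunoproteasome subunit Psmb9, at 0.40 ± 0.16 (SE). Leaving out AA replicate 3, they differed by 0.46, 0.43 and 0.25, and Irgm1 alone kept an unadjusted p under 0.05. The NF-kB response list had 10 of 15 means higher, and its median was 0.11. Within that list Tnfaip3 (A20), an inhibitor of NF-kB signalling, had a lower mean in AA, at 9.07, 8.62, 8.89 and 9.01 against 9.16, 9.60, 9.25 and 9.30 in SS, with all AA arrays below all SS arrays. Its difference was -0.43 ± 0.13 (SE), at an unadjusted p of 0.0101 and a limma adjusted p of 0.463. Without AA replicate 3 the medians of the type I interferon, interferon gamma and NF-kB lists were 0.62, 0.26 and -0.02. Of the type I interferon response genes, 12 of 14 then kept an unadjusted p under 0.05 in limma, beside 5.81% of all genes higher.

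Markers of some other cell types were also highest in AA replicate 3. Macrophage and monocyte markers, 11 of 11 with a higher mean in AA and 3 at an unadjusted p under 0.05, had list means of 7.70 to 8.996 in AA and 7.40 to 8.27 in SS, highest in AA replicate 3. Neutrophil markers, 8 of 8 higher with 0 at that p in limma, ran from 6.15 to 7.16 in AA and from 5.87 to 6.55 in SS, and mesothelium markers, 7 of 7 higher with 4 at that p, from 7.42 to 8.74 in AA and from 6.51 to 7.75 in SS, both highest in AA replicate 3. T cell markers were lower in 8 of 9 members, with list means of 5.74 to 5.93 in AA and 5.80 to 6.20 in SS. Adipose markers were lower in 7 of 7, with means of 6.03 to 7.27 in AA and 6.56 to 8.34 in SS, highest in SS replicate 1. Without AA replicate 3, 0 macrophage and monocyte markers and 2 mesothelium markers had a higher mean at an unadjusted p under 0.05 in limma. Their median differences were then 0.24 and 0.45, against 0.48 and 0.81 with all arrays, and 5 of 8 neutrophil markers had a higher mean. Within batch 1, 3 of 8 neutrophil markers had a higher mean in AA, and 7 of 8 were dim, with means below 7.13. The part of these cell types in the ligand values was not tested. Endothelium and lymphatic endothelium markers had median differences of 0.14 and 0.24 and smooth muscle markers 0.37. AA replicate 3 had the lowest smooth muscle list mean of the AA arrays, 10.81, and without it that median was 0.52. Of smooth muscle and fibroblast markers, 5 of 8 and 7 of 8 were higher at an unadjusted p under 0.05 in limma. Without AA replicate 3 these were 7 of 8 and 6 of 8. The share of all genes was 5.67% with that array and 5.81% without it.

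**Figure D5:**
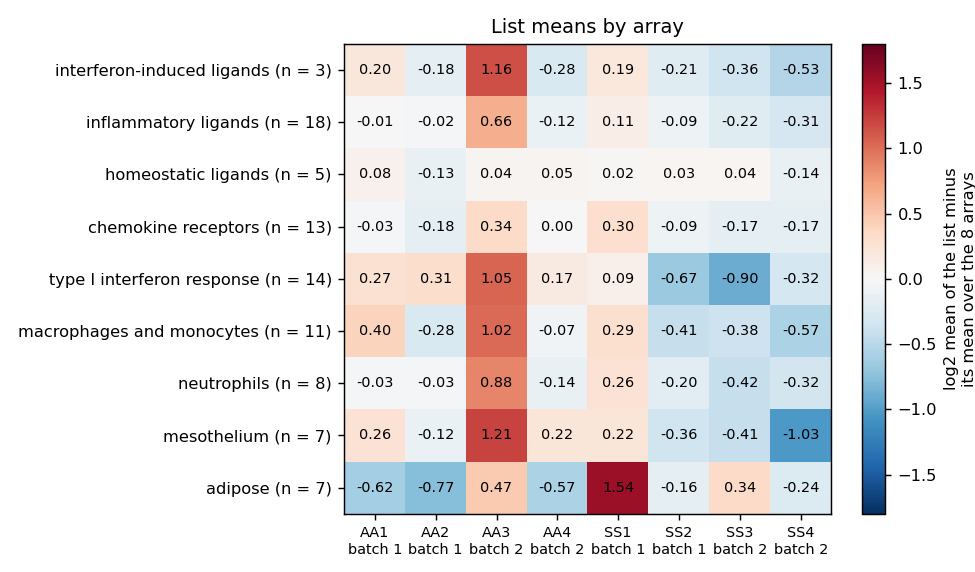
Mean log2 level of each ligand class and gene list in each array minus its mean over the 8 arrays; colour and numbers give the same value, AA arrays are left of SS arrays, and n is the number of genes. AA replicate 3 is highest for the interferon-induced ligands (1.16), the inflammatory ligands (0.66), macrophages and monocytes (1.02) and mesothelium (1.21). The mean of the homeostatic ligands stays between -0.14 and 0.08. That mean joins ligands with AA minus SS differences of opposite sign, such as Ccl28 (-0.48) and Cxcl12 (0.28).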

How the data were processed

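RNA of the most distal colon was measured on 8 Affymetrix MoGene-1_0-st arrays (100 ng of RNA each, per the labels). The authors deposited log2 values per probe set; per the submitters' processing notes RMA, Affymetrix Power Tools and Partek 6.4 were used. The genome build and annotation release are not given here. The deposited batch means differed by at most 0.00006 over the tested probe sets, a step the labels do not describe. The authors also deposited gene sets with an enrichment score, p-value, q-value and number of enriched genes, per the file headers.

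Probe sets were named by the platform annotation: 18154 of 23442 had 1 symbol, 1559 several and 3729 none. Entrez identifiers changed 0 symbols against RefSeq (GRCm38.p6). Array medians were 6.93 to 6.99; arrays give no depth, and their number limits precision. The test was limma 3.58.1 in R 4.3.3 (lmFit and eBayes, with batch and group as terms, 5 residual degrees of freedom), Benjamini-Hochberg over 18154 probe sets, threshold 0.05, no filter. The fit was tested on simulated data. Ligands with full values were Cxcl9 to Cxcl11, those at an unadjusted p under 0.05, and per class the 3 with the highest mean and 2 with the largest difference. Of pathway lists, genes at that p were named, at most 4 a list by smallest p. Marker lists are given as lists. Ccl2, Ccl7, Cxcl5, Ccr1, Ccr2, Ccr10, Cxcr2, Cxcr3, Xcl1 and Ppbp fell outside that rule and were chosen after their values were seen. Promoters came from the RefSeq table (GRCm38.p6). Members and lists were chosen with earlier results of these data known. Alternatives were a fit without batch, a replicate block, a level filter, all probe sets, quantile or median scaling, a variance trend, array weights, each array or batch left out, gene means and another threshold.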

Additional observations from a re-analysis of the deposited data

Results flagged for a closer look

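Within each group of 4 arrays, the highest or lowest value of each ligand was set against the others by Dixon's ratio. Of 62 such groups 4 held an array far from the rest, near the share of about 1 in 20 that chance gives. Ccl12 in AA replicate 3 stood at 6.999, with the next AA array at 5.91 and the lowest at 5.70. Ccl9 in SS replicate 1 stood at 8.13, with the other SS arrays between 7.32 and 7.43. Ccl22 in AA replicate 1 was low at 5.18, below AA arrays at 5.46 to 5.48. Cxcl17 in SS replicate 3 was low at 6.34, below SS arrays at 6.58 to 6.62. AA replicate 3 was also far above the other AA arrays for Ccl2, whose ratio of 0.828 lay just under the critical value. The ratios of that array were 0.745 for Cxcl5, 0.734 for Ccl9, 0.708 for Ccl8 and 0.649 for Cxcl10.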

How the results depend on the processing

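No ligand passed the adjusted threshold under any alternative, and of 294 values of the 15 ligands with a naming rule, 278 kept their direction and 16 turned. Array weights, which gave SS replicate 2 a weight of 11.5 and the other arrays 0.273 to 1.53, put 177 probe sets past the threshold (main 0), 103 of them higher in AA. They gave 1602 probe sets higher and 1396 lower at an unadjusted p under 0.05 (main 977 and 490), with 6 ligands higher and 1 lower (main 3 and 0), beside 9.2% and 7.14% of all genes. Probe sets lower at that p numbered 751 with no batch term, 252 of those at or above the median level, 920 after quantile normalization, 823 after centring on array medians, 1408 in batch 2 alone and 870 with both AA replicate 3 and SS replicate 1 left out, an alternative chosen after seeing the data. No batch term gave 5 ligands higher and 1 lower at that p, beside 7.44% and 3.67% of all genes. Quantile normalization, median centring and leaving out both arrays each gave 1 lower, beside 4.57%, 4.05% and 4.07%. After median centring 0 ligands had groups apart (6.61% of all genes), and 4 without both arrays (18.1%), where Cxcl9 was -0.029. The level filter left 10 ligands. Of these 7 had a higher mean, beside 57.7% of the genes passing the filter, and 1 was higher at that p, beside 7.67%. The medians were then 0.86 for the interferon-induced class (Cxcl10 alone) and 0.15 for the dual-role class. With means over probe sets the homeostatic median was -0.00074. In batch 1 alone 0 ligands were higher at that p, beside 4.14% of all genes, and 14 had a higher mean, beside 55.2%. Groups were apart there for 10 ligands (39.3% of all genes), and the inflammatory median was -0.080. There Ccl9 was -0.17, Cxcl10 -0.022, Cxcl9 -0.043, Cxcl17 -0.11 and Cx3cl1 0.040. In batch 2 alone 7 ligands were higher and 1 lower at that p, beside 5.59% and 6.88% of all genes, 15 had groups apart, beside 45.4%, and Ccl22 was 0.0082. The causes of these shifts were not tested.

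Leaving out each array in turn, 0 probe sets passed the threshold. At an unadjusted p under 0.05, 585 (without SS replicate 4) to 1013 (without SS replicate 1) were higher and 322 (without SS replicate 2) to 1121 (without SS replicate 1) lower. Ligands higher at that p were fewest, at 0, without AA replicate 3 or SS replicate 4, beside 5.81% and 3.39% of all genes. They were most, at 5, without AA replicate 4 or SS replicate 1, beside 5.15% and 5.89%. From 0 to 1 were lower, with 1 without AA replicate 1 or AA replicate 3, beside 3.47% and 2.05%. Between 1 and 4 ligands had groups apart (4 without AA replicate 1, beside 10.2% of all genes). Differences ranged from -0.090 to 0.47 for Ccl9, -0.072 to 0.48 for Cxcl9, -0.039 to 0.078 for Cxcl17, and -0.14 to 0.12 for Cx3cl1.

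Whether replicate numbers pair the samples could not be judged from the values. Deviations of same-numbered arrays had correlations of -0.44 to -0.09, but the equal batch means by themselves push such correlations below 0. With the number as a block in place of batch, 3 ligands were higher and 1 lower at an unadjusted p under 0.05 (5.08% and 1.67% of all genes), 875 and 369 probe sets over the table, and no ligand passed the threshold. Signal over background could not be judged, as no detection calls were used.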
